A study of Mus musculus with 18 samples.

Results

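The 9 genes described here carry the insulin signal from its receptor to AKT and to the first targets of AKT: *Insr*, *Irs1*, *Irs2*, *Irs3*, *Pik3r1*, *Akt1*, *Akt2*, *Foxo1* and *Tbc1d4*. They were chosen by name for their place in the pathway, out of 55487 genes counted, with earlier results of these data known. All 9 passed the filter on low counts in both tissues. RNA was sequenced from bulk adipose tissue of Csn8AKO mice and their Ctrl littermates to ask how loss of CSN8, a subunit of the COP9 signalosome, in adipocytes changes the tissue. Subcutaneous white adipose tissue (sWAT) came from 4 Ctrl and 4 Csn8AKO mice at 12 weeks of age, and brown adipose tissue (BAT) from 5 Ctrl and 5 Csn8AKO mice at the age of 4 weeks, which gave 18 libraries. Both genotypes carried the floxed *Csn8* alleles (Csn8 f/f). The Csn8AKO mice also carried Cre recombinase under the adiponectin promoter, which drives Cre in adipocytes and so removes exons 4 to 6 of *Csn8* there. All mice were male, and the study's methods give a chow diet and a 4 h fast. The genetic background of the mice was not given in the sources used here. Tissue and age cannot be told apart, since each tissue was taken at 1 age.

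Insulin binds the receptor encoded by *Insr*, a tyrosine kinase that phosphorylates the insulin receptor substrates IRS1, IRS2 and, in rodents, IRS3. The phosphorylated substrates recruit phosphatidylinositol 3-kinase (PI3K), a lipid kinase whose most abundant regulatory subunit is encoded by *Pik3r1*, and the lipid it makes brings AKT to the membrane. In fat cells AKT2 is the isoform best known for insulin-stimulated glucose uptake. It phosphorylates TBC1D4, which otherwise holds vesicles of the glucose transporter GLUT4 inside the cell, and FOXO1, a transcription factor that is then kept out of the nucleus. The pathway is controlled mainly by phosphorylation, which RNA counts do not measure.

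The libraries held 15835721 to 23109603 counted reads in sWAT and 26658593 to 66719937 in BAT. Ribosomal RNA made up 1.80 to 47.8% of the counts in sWAT and 0.863 to 15.1% in BAT. The largest shares were 31.8 and 47.8%, in Csn8AKO sWAT replicates 3 and 4, and their part in the sWAT values was not tested. *Csn8* is named *Cops8* in the files, and its counts also cover the exons that Cre leaves in place. *Cops8* was at 35.0 ± 0.9 CPM, the count scaled to the size of the library (SD, n = 4), in Ctrl sWAT and 32.2 ± 3.0 in Csn8AKO sWAT (log2 fold change -0.12, edgeR's quasi-likelihood test, adjusted p = 0.623), and at 39.4 ± 3.2 and 32.1 ± 3.6 in BAT (log2 fold change -0.30, adjusted p = 0.0211). Adipocyte markers were abundant in every group, with summed levels of 9133 to 29930 CPM over 12 markers and none at 0, and 10 of 10 brown fat markers were higher in Ctrl BAT than in Ctrl sWAT. Macrophage markers moved with genotype: 8 of 12 were higher in Csn8AKO sWAT and 11 of 12 in Csn8AKO BAT, with summed levels of 1231 to 1634 CPM in Ctrl and 2207 to 3635 in Csn8AKO sWAT, and of 105 to 153 and 437 to 644 CPM in BAT. In sWAT, 2 of 12 adipocyte markers were lower in Csn8AKO mice, and all 12 had log2 fold changes below 0. Brown fat markers were also lower there, 3 of 8 tested, with summed levels of 119 to 221 CPM in Ctrl and 25.0 to 60.5 CPM in Csn8AKO sWAT. In BAT, 7 of 7 fibroblast markers and 3 of 7 endothelial markers were higher in Csn8AKO mice. Of 12 adipocyte markers in BAT, 1 was higher and 2 were lower, with summed levels of 13477 to 17483 CPM in Ctrl and 15529 to 21192 in Csn8AKO mice. Of 10 brown fat markers in BAT, 1 was higher and 1 lower. These are counts of markers at an adjusted p under 0.05. Over all genes tested, 5.31% were called in sWAT, 31.9% in BAT and 51.5% between the Ctrl tissues. The part of these marker shifts in the results below was not tested, and in bulk tissue fewer cells of a type and less RNA per cell cannot be told apart. A few libraries stood apart within their group. Lymphocyte markers summed to 254 CPM in Ctrl sWAT replicate 1 and to 461 CPM in Csn8AKO sWAT replicate 2, against 5.69 to 27.4 CPM in the other sWAT libraries, and the second of these also had the lowest adipocyte sum. Skeletal muscle markers summed to 123 and 214 CPM in Csn8AKO BAT replicates 1 and 5 and to at most 2.85 CPM in the other BAT libraries. In sWAT these sums were larger and uneven, from 176 to 2987 CPM in Ctrl and from 48.2 to 1787 CPM in Csn8AKO libraries. The highest were Ctrl replicate 3 and Csn8AKO replicate 4, and the part of muscle RNA in the sWAT values was not tested.

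The sequences upstream of *Irs3*, *Akt1* and *Akt2* are shown because these are the genes whose RNA differed between genotypes in BAT. Each is the 250 bases before an annotated start site in RefSeq (GRCm38.p6), written 5′ to 3′ on the strand of the gene, at chr5:137645715-137645964 on the minus strand for *Irs3*, chr12:112674885-112675134 on the minus strand for *Akt1* and chr7:27591302-27591551 on the plus strand for *Akt2*. RefSeq lists 1 such stretch for *Irs3*, 2 for *Akt1* and 4 for *Akt2*, and the one nearest to the annotated 5′ end of the gene was taken, so that the motif counts hold for that stretch alone. Capitals mark matches on either strand to the FOXO element TGTTTAC, the GC box GGGCGG, the CCAAT box CCAAT, the E-box CACGTG or the TATA box TATAAA.
*Irs3*: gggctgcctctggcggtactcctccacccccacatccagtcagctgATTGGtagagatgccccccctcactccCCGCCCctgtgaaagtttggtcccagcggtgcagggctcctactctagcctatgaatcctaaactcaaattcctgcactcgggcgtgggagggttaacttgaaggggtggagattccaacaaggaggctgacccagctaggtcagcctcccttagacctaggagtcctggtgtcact
*Akt1*: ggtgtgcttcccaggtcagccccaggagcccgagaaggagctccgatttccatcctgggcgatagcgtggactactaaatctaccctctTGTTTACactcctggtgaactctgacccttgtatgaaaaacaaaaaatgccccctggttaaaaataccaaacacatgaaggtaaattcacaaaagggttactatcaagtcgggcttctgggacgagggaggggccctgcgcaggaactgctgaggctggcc
*Akt2*: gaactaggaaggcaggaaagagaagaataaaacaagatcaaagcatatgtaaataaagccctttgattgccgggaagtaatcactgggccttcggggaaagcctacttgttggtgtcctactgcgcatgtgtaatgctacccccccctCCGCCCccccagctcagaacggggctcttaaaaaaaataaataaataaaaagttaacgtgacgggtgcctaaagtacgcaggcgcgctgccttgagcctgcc
The *Akt1* stretch held the FOXO element once, beginning 161 bases before the start site, and none of the other 4 motifs. That element was in 3.17% of the 32851 upstream stretches of the same length in the RefSeq table. *Akt2* held 1 GC box and *Irs3* held 1 GC box and 1 CCAAT box, motifs found in 32.7% and 33.8% of all stretches. Of the 9 genes, 8 had a sequence in that table, and among the 8 stretches chosen in this way the FOXO element was in that of *Akt1* alone. *Insr* had no entry. A match describes the letters and not binding, and no binding was measured.

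The other members lie on GRCm38 at chromosome 8, 3122061 to 3279617 (*Insr*), chromosome 1, 82233101 to 82291416 (*Irs1*), chromosome 8, 10984681 to 11008458 (*Irs2*), chromosome 13, 101680563 to 101768217 (*Pik3r1*), chromosome 3, 52268336 to 52353221 (*Foxo1*) and chromosome 14, 101442360 to 101609191 (*Tbc1d4*). *Insr*, *Irs1*, *Irs2* and *Foxo1* overlap a gene on the opposite strand, and *Pik3r1*, *Foxo1* and *Tbc1d4* overlap a gene on the same strand. The study counted only reads that were unambiguous, and the strand setting of the counting was not given. How many reads of the overlapping parts were left out is therefore not known.

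In Ctrl mice the AKT isoforms and *Pik3r1* led the pathway in sWAT, and *Akt2* led it in BAT. Levels are compared between genes as RPKM, the reads per kilobase of exon after scaling for depth. In Ctrl sWAT, *Pik3r1* was at 55.9 ± 15.8 RPKM (SD, n = 4) and *Akt2* at 52.4 ± 9.4 RPKM, and the ranges of these genes overlapped. *Akt1* followed at 29.1 ± 2.0 RPKM, below every *Akt2* value. The other 6 genes ran from *Irs1* at 21.2 RPKM through *Irs2*, *Insr*, *Foxo1* and *Irs3* down to *Tbc1d4* at 11.2 RPKM, each overlapping the next. In Ctrl BAT, *Akt2* was at 79.6 ± 4.8 RPKM (SD, n = 5), followed by *Irs2* at 52.1 ± 26.0 RPKM and *Akt1* at 41.5 ± 1.9 RPKM. *Irs2* varied most among mice, from 28.5 to 94.1 RPKM, so that its place among the AKT isoforms was not fixed. *Irs3* was at 16.0 ± 2.6 RPKM in Ctrl BAT.

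Between the tissues of Ctrl mice, 4 of the 9 genes passed an adjusted p under 0.05, against 51.5% of all genes tested, a share below that of the background. *Irs2* was 2.69-fold higher in BAT than in sWAT (log2 difference 1.43 ± 0.43 SE, edgeR's quasi-likelihood test over all 4 groups, adjusted p = 0.00990). *Akt2* was 1.52-fold higher in BAT (adjusted p = 0.00861) and *Akt1* 1.43-fold higher (adjusted p = 0.000792). *Pik3r1* was 1.84-fold lower (adjusted p = 0.0206). The *Irs2*, *Akt1* and *Akt2* ranges did not overlap between the tissues, as was true of 45.9% of all genes. The calls of *Akt1* and *Akt2* were lost when libraries were scaled by library size alone, with adjusted p of 0.334 and 0.0976. The *Pik3r1* call was lost without the filter on low counts (adjusted p = 0.0817) and without any of Ctrl sWAT replicates 1 and 3 and Ctrl BAT replicates 4 and 5. *Akt2* also lost its call without Ctrl sWAT replicate 1 (adjusted p = 0.0516).

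**Figure D1:**
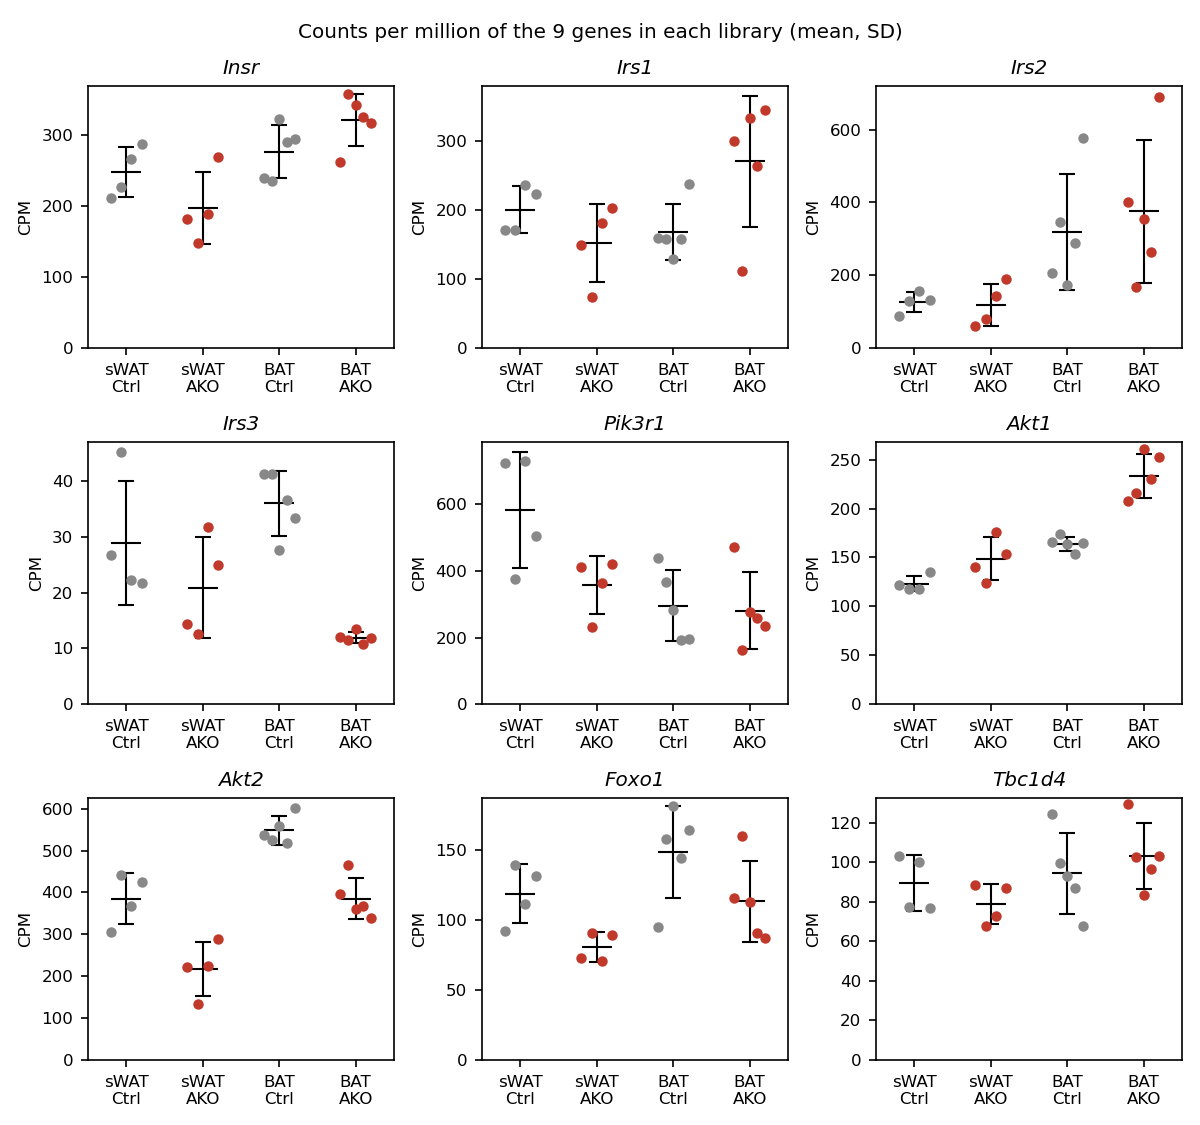
CPM of each of the 9 genes (y axis, from 0) in each library of the 4 groups (x axis, AKO for Csn8AKO). Points are mice and the bars give the mean and SD. *Irs3* in BAT lay between 27.6 and 41.4 CPM in Ctrl and between 10.8 and 13.5 CPM in Csn8AKO mice, *Akt1* was higher and *Akt2* lower in every Csn8AKO BAT library than in any Ctrl one, and *Irs2* and *Pik3r1* spread widely within each BAT group.

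In BAT, loss of CSN8 in adipocytes went with 3.02-fold less *Irs3*, 1.42-fold less *Akt2* and 1.42-fold more *Akt1* RNA. These 3 of 9 genes passed an adjusted p under 0.05, against 31.9% of all genes tested in BAT, a share close to that background. The other 6 genes did not pass the test.

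*Irs3* encodes the short insulin receptor substrate of rodent fat. In Ctrl BAT it was at 41.3, 41.4, 27.6, 36.6 and 33.3 CPM in replicates 1 to 5. In Csn8AKO BAT it was at 12.0, 11.4, 13.5, 10.8 and 11.9 CPM. The groups did not overlap, and the 5 Csn8AKO mice all lay between 10.8 and 13.5 CPM. The log2 fold change was -1.60 ± 0.12 (SE, 95% CI -1.84 to -1.35, edgeR's quasi-likelihood test, adjusted p = 5.51e-07). *Irs3* was also the one member whose change was at least 1 on the log2 scale, as was true of 11.0% of all genes tested. No gene overlaps *Irs3* (ENSMUSG00000047182, chromosome 5, 137643031 to 137645714, minus strand, GRCm38) in the annotation.

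*Akt1* encodes the AKT isoform that is present in most tissues. Its level was 165, 174, 164, 154 and 164 CPM in the Ctrl BAT libraries and 207, 216, 261, 230.2 and 252 CPM in the Csn8AKO ones. Every Csn8AKO library was above every Ctrl library. The log2 fold change was 0.51 ± 0.08 (SE, 95% CI 0.33 to 0.69, adjusted p = 0.000440), a 1.42-fold rise. *Akt1* is on chromosome 12 at 112653821 to 112674884 (minus strand), with the microRNA gene *Mir6939* inside it on the same strand.

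*Akt2*, the isoform tied to glucose uptake in fat, moved in the opposite direction. Ctrl BAT libraries held 537, 525, 559, 518 and 602 CPM, and Csn8AKO libraries 397, 465, 359, 367 and 339.7 CPM. The groups did not overlap, and the highest Csn8AKO library was replicate 2. The log2 fold change was -0.51 ± 0.10 (SE, 95% CI -0.72 to -0.29, adjusted p = 0.00151), a 1.42-fold fall. *Akt2* is on chromosome 7 at 27591552 to 27640826 (plus strand) and overlaps no other gene. Groups that did not overlap were found for these 3 of the 9 genes and for 21.0% of all genes tested in BAT. The 3 calls were kept in each of 11 alternative analyses and in each of 10 fits that dropped a single library, where *Akt1* ran from 0.47 to 0.55, *Akt2* from -0.59 to -0.46 and *Irs3* from -1.68 to -1.54 on the log2 scale. Without the libraries that held muscle markers the values were 0.52, -0.47 and -1.60.

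The receptor and the larger substrates did not pass edgeR's test in BAT. *Insr* had a median of 290.1 CPM (235.6 to 322.0) in Ctrl and 325 CPM (262 to 358) in Csn8AKO mice, with overlapping ranges and a log2 fold change of 0.22 (95% CI -0.03 to 0.46, adjusted p = 0.164). It passed with library size alone (0.34, adjusted p = 0.0490). *Irs1*, a substrate used in most insulin-responsive tissues, was at 159, 158, 129, 158 and 237 CPM in Ctrl BAT. In Csn8AKO BAT it was at 299.8, 111, 333, 263 and 345 CPM. Replicate 2 of the Csn8AKO group was the lowest of the 10 libraries, and the other 4 were above every Ctrl library. The log2 fold change of *Irs1* was 0.68 ± 0.28 (SE, adjusted p = 0.0878). It was 0.88 with an adjusted p of 0.000843 without Csn8AKO replicate 2, and 0.84 with an adjusted p of 0.0460 without Ctrl replicate 5. *Irs1* also passed under DESeq2 (adjusted p = 0.0228) and limma voom (adjusted p = 0.0270), so its call rested on the method and on single libraries. Csn8AKO BAT replicate 2 also had the largest share of ribosomal RNA reads in BAT, 15.1%, and its part in that value was not tested. *Irs2* spread more within the groups than between them, from 174 to 576 CPM in Ctrl and from 168 to 688 CPM in Csn8AKO mice, and the 95% CI of its log2 fold change ran from -0.73 to 1.21 (adjusted p = 0.720).

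*Pik3r1*, *Foxo1* and *Tbc1d4* did not pass either. *Pik3r1* ran from 194 to 439.9 CPM in Ctrl and from 163 to 471 CPM in Csn8AKO BAT, and its interval (-0.77 to 0.62 on the log2 scale, adjusted p = 0.886) leaves room for a change in either direction. *Foxo1* was at 95.0, 158, 182, 145 and 164 CPM in Ctrl and 116, 160.5, 113, 91.0 and 87.4 CPM in Csn8AKO mice. The ranges overlapped through Ctrl replicate 1 and Csn8AKO replicate 2. Its log2 fold change was -0.39 ± 0.19 (SE, adjusted p = 0.145), and it passed without the first of these libraries (-0.52, adjusted p = 0.0268) or without the second (-0.55, adjusted p = 0.0263). It also passed under limma voom with all libraries (-0.55, adjusted p = 0.0201). *Tbc1d4* had a log2 fold change of 0.13 (95% CI -0.19 to 0.45, adjusted p = 0.557).

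In sWAT, 8 of the 9 genes were below 0 on the log2 scale, with a median of -0.40 against 0.03 over all genes tested, but 0 of 9 passed an adjusted p under 0.05, against 5.31% of all genes tested. At an unadjusted p under 0.05 there were 3 of 9, *Akt2*, *Foxo1* and *Pik3r1*, against 20.4% of all genes. DESeq2 and limma voom each called 2 of 9, *Akt2* and *Foxo1*.

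*Akt2* had the largest of these differences. It was at 305, 442, 369 and 425 CPM in Ctrl sWAT and at 222, 134, 224 and 289 CPM in Csn8AKO sWAT. The groups did not overlap, and the lowest library was Csn8AKO replicate 2, the one rich in lymphocyte markers. The log2 fold change was -0.83 ± 0.23 (SE, 95% CI -1.34 to -0.31, adjusted p = 0.0706). *Foxo1* was at 92.5, 139.5, 112 and 132 CPM in Ctrl sWAT and 72.9, 90.6, 70.5 and 89.4 CPM in Csn8AKO sWAT, again without overlap. Its log2 fold change was -0.56 ± 0.16 (SE, adjusted p = 0.0800). *Foxo1* and *Akt2* were the 2 of 9 genes whose groups did not overlap, both lower in Csn8AKO mice, as was true of 8.23% of all genes in that direction. Without the lymphocyte-rich library of each genotype, an alternative chosen after the data were seen, *Akt2* was at -0.75 (adjusted p = 0.0176) and *Foxo1* at -0.72 (adjusted p = 0.0140). Single libraries also decided these calls: *Akt2* passed without Csn8AKO replicate 2 (adjusted p = 0.0470) or 4 (adjusted p = 0.0424), and *Foxo1* without Ctrl replicate 1 (adjusted p = 0.0467) or Csn8AKO replicate 2 (adjusted p = 0.0482).

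The other 7 genes overlapped between genotypes in sWAT. *Pik3r1* was at 724, 377, 732 and 504 CPM in Ctrl and 413, 233, 364 and 421 CPM in Csn8AKO mice. Ctrl replicate 2 lay among the Csn8AKO libraries. The log2 fold change of *Pik3r1* was -0.71 ± 0.26 (SE, adjusted p = 0.162). *Akt1* was the one member above 0, at 122, 118, 118 and 135 CPM in Ctrl and 140.2, 124, 177 and 153 CPM in Csn8AKO sWAT (log2 fold change 0.27, 95% CI -0.04 to 0.58, adjusted p = 0.317). *Irs3*, which fell in BAT, was at 26.7, 45.3, 22.2 and 21.7 CPM in Ctrl sWAT and 14.3, 12.6, 31.8 and 25.0 CPM in Csn8AKO sWAT. Its log2 fold change in sWAT was -0.47 with an interval of -1.25 to 0.30 (adjusted p = 0.503). *Insr* (-0.33, adjusted p = 0.395), *Irs1* (-0.40, adjusted p = 0.481), *Irs2* (-0.09, adjusted p = 0.917) and *Tbc1d4* (-0.18, adjusted p = 0.570) had log2 fold changes whose intervals held 0. *Irs1* was lowest, at 73.6 CPM, in Csn8AKO replicate 2, against 149 to 203 CPM in the other 3 Csn8AKO libraries.

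**Figure D2:**
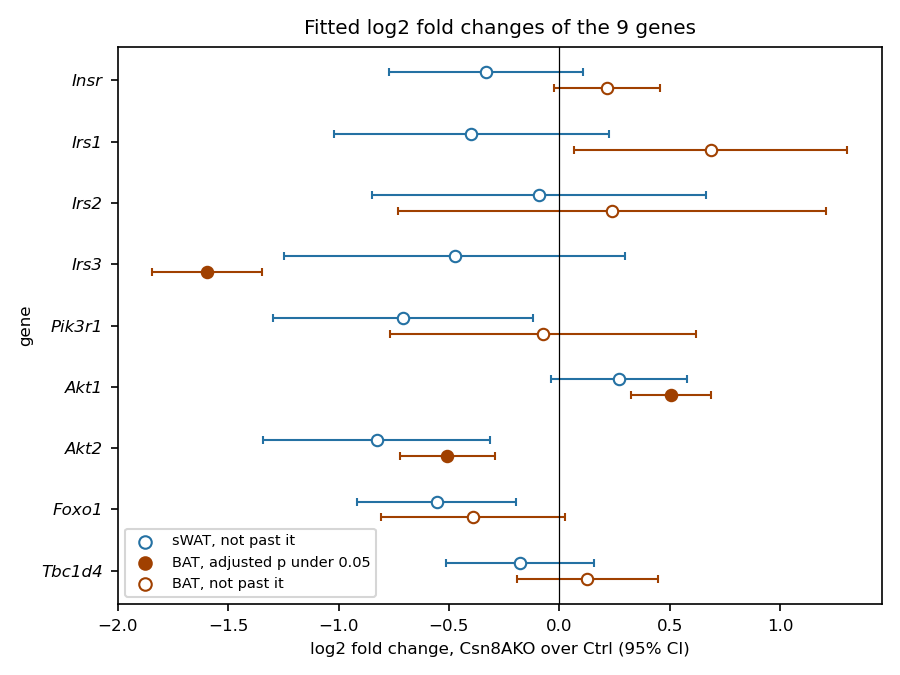
Log2 fold change of each gene (y axis) in Csn8AKO over Ctrl mice (x axis), in sWAT and BAT, with 95% confidence intervals. Filled points are at an adjusted p under 0.05, which were *Irs3*, *Akt1* and *Akt2* in BAT. *Akt1* lies above 0 and *Akt2* below 0 in both tissues, while *Irs1* and *Insr* lie below 0 in sWAT and above it in BAT.

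The genotype difference itself was compared between the tissues as an interaction, and 0 of 9 genes passed an adjusted p under 0.05, against 2.36% of all genes tested. At an unadjusted p under 0.05 there were 3 of 9, *Irs3*, *Irs1* and *Insr*, against 15.3%. DESeq2 called 0 of 9 and limma voom 1, *Irs3*. The *Irs3* difference was larger in BAT by 1.13 on the log2 scale, with an interaction of -1.13 ± 0.36 (SE, adjusted p = 0.117). It passed under limma voom (-1.49, adjusted p = 0.0105) and without Ctrl sWAT replicate 2 (-1.45, adjusted p = 0.0232) or Csn8AKO sWAT replicate 2 (-1.32, adjusted p = 0.0358). *Irs1* had an interaction of 1.06 ± 0.42 (SE, adjusted p = 0.224) and *Insr* one of 0.54 ± 0.23 (SE, adjusted p = 0.264). For *Akt1* the interaction was 0.22 (95% CI -0.11 to 0.55) and for *Akt2* 0.31 (95% CI -0.22 to 0.83), neither past the threshold.

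The balance of *Akt1* and *Akt2* was set out per length. *Akt1* made up 36.0 ± 3.8% (SD, n = 4) of the summed *Akt1* and *Akt2* RPKM in Ctrl sWAT and 55.0 ± 6.0% in Csn8AKO sWAT. In BAT its share was 34.3 ± 1.6% (SD, n = 5) in Ctrl and 51.4 ± 5.1% in Csn8AKO mice. In each tissue every Csn8AKO library was above every Ctrl library, with the nearest at 48.0% against 41.1% in sWAT and at 44.7% against 36.5% in BAT. The sum of both genes was 121 ± 5.3 RPKM in Ctrl BAT and 113 ± 6.0 in Csn8AKO BAT, and 81.5 ± 10.6 and 64.3 ± 13.4 RPKM in sWAT. *Akt2* thus went from well above *Akt1* in the Ctrl groups to about its level, 55.2 ± 7.3 against 58.1 ± 5.8 RPKM in Csn8AKO BAT and 29.4 ± 9.0 against 34.9 ± 5.7 RPKM in Csn8AKO sWAT. These shares were added after the values were seen and were not tested.

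The same balance, taken as the log2 ratio of the *Akt1* to the *Akt2* count within a library, does not depend on scaling between libraries. It rose by 1.13 in Csn8AKO sWAT, from -1.63 ± 0.24 (SD, n = 4) to -0.51 ± 0.35, and by 1.02 in Csn8AKO BAT, from -1.74 ± 0.10 (SD, n = 5) to -0.72 ± 0.30. The groups did not overlap in either tissue, which gives the smallest p that a two-sided exact permutation test can reach, 0.0286 for 4 against 4 and 0.00794 for 5 against 5. In BAT this follows from the separate values of *Akt1* and *Akt2*, neither of which overlapped between genotypes, and adds no further support. After Benjamini-Hochberg adjustment over the 14 ratios tested in the exact test, 7 in each tissue, these became 0.0800 and 0.0556. At these smallest p a ratio can pass only if several others of the 14 have a small p too. That 0 of 14 ratios was under 0.05 therefore says little of any single ratio. The unadjusted p was under 0.05 for 5 of the 14.

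Of the other ratios, that of *Irs3* to *Irs1* fell by 2.19 in BAT, from -2.21 ± 0.37 (SD, n = 5) to -4.40 ± 0.64, without overlap (two-sided exact permutation test, p = 0.00794, adjusted 0.0556). In sWAT it was -2.84 in Ctrl and -2.87 in Csn8AKO mice. *Irs3* made up 19.7 ± 5.6% (SD, n = 5) of the summed RPKM of the 3 substrates in Ctrl BAT and 6.33 ± 2.9% in Csn8AKO BAT, and 23.0 ± 8.1% and 20.2 ± 3.0% in sWAT. The ratio of *Foxo1* to *Foxo3*, its close relative, fell by 0.76 in sWAT without overlap (two-sided exact permutation test, p = 0.0286, adjusted 0.0800). In BAT it fell by 0.66 with overlapping ranges (exact permutation test, p = 0.0238, adjusted 0.0800). *Foxo3* was at 47.6 ± 3.8 CPM in Ctrl BAT and 57.4 ± 5.6 CPM in Csn8AKO BAT (adjusted p = 0.0267). The ratios of *Irs1* to *Irs2*, *Insr* to *Igf1r*, *Tbc1d4* to *Tbc1d1* and *Pik3r1* to *Pik3r2* overlapped between genotypes in both tissues.

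**Figure D3:**
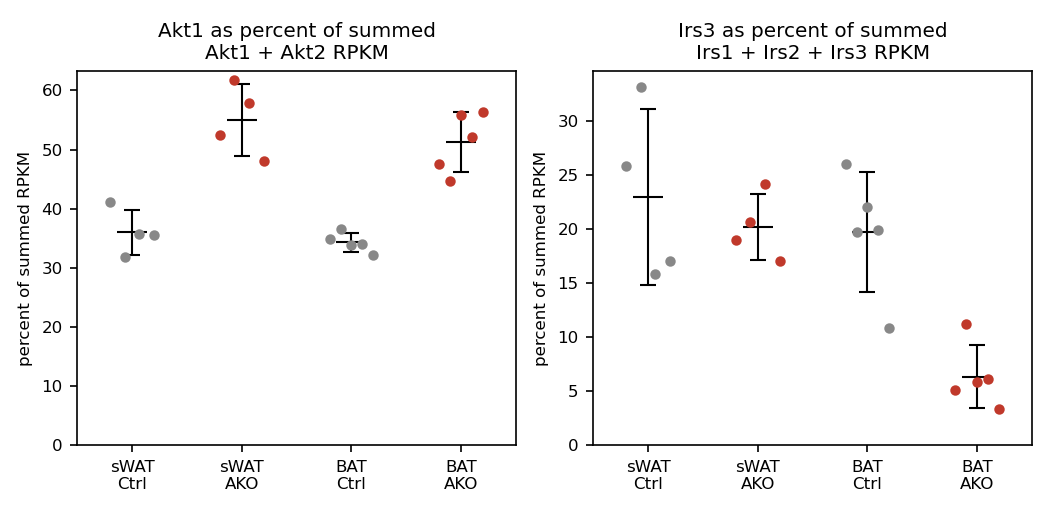
Share of *Akt1* in the summed RPKM of *Akt1* and *Akt2* (left, y axis in percent from 0) and share of *Irs3* in that of *Irs1*, *Irs2* and *Irs3* (right) in each library of the 4 groups, with mean and SD. The mean *Akt1* share is 36.0 and 34.3% in the Ctrl groups and 55.0 and 51.4% in the Csn8AKO groups, and the *Irs3* share runs from 3.35 to 11.2% in Csn8AKO BAT and from 10.9 to 26.1% in Ctrl BAT.

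The wider pathway was described with 93 further genes in 8 lists by role, of which 90 were tested in each tissue. The lists were chosen with earlier results of these data known, so the shares called, here and below, describe and do not test the lists. In sWAT 0 were higher and 9 lower in Csn8AKO mice, or 10.0% against 5.31% of all genes. In BAT 19 were higher and 16 lower, or 38.9% against 31.9%. The medians, -0.11 in sWAT and 0.03 in BAT, lay beside 0.03 and 0.01 over all genes tested.

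Downstream of AKT, the list for GLUT4 vesicle traffic had 3 of 16 genes lower in sWAT and 5 of 16 in BAT, and 0 higher in either tissue. These were 18.75% against 5.31% of all genes in sWAT, and 31.25% against 31.9% in BAT, a share close to the background. *Slc2a4*, which encodes GLUT4 itself, fell from 188 ± 47.7 CPM (SD, n = 4) to 43.1 ± 15.7 CPM in sWAT (log2 fold change -2.12, adjusted p = 0.00544) and from 462 ± 72.0 CPM (SD, n = 5) to 315 ± 41.5 CPM in BAT (-0.55, adjusted p = 0.00360). Of this list, *Slc2a4*, *Myo1c* and *Ralgapa2* passed the test of the genotype difference between tissues. *Ralgapa2*, the catalytic subunit of a complex that holds RAL proteins inactive and is itself an AKT substrate, fell from 273 ± 49.4 to 103 ± 17.4 CPM in sWAT (-1.41, adjusted p = 0.00371). *Myo1c*, a motor that helps GLUT4 vesicles reach the membrane, fell from 497 ± 72.4 to 276 ± 29.5 CPM there (-0.85, adjusted p = 0.0184). In BAT, *Rhoq* (-0.52, adjusted p = 0.000190), which encodes the small GTPase TC10, *Stx4a* (-0.36, adjusted p = 0.00235), the syntaxin at which the vesicles fuse, and *Aspscr1* (-0.42, adjusted p = 0.00501), which encodes the vesicle tether TUG, were lower.

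Of the other AKT substrates, 2 of 11 tested were lower in sWAT, *Pde3b* and *Foxo4*, and in BAT 2 of 12 were higher and 1 lower, 25.0% against 31.9% of all genes. *Pde3b*, the phosphodiesterase through which insulin restrains lipolysis, fell from 375 ± 78.4 to 168 ± 44.7 CPM in sWAT (-1.16, adjusted p = 0.0198). *Foxo4* fell in both tissues, by 0.47 in sWAT (adjusted p = 0.0488) and by 0.84 in BAT (adjusted p = 1.48e-05). *Tbc1d1*, the relative of *Tbc1d4*, rose in BAT from 21.2 ± 1.8 to 30.6 ± 5.9 CPM (adjusted p = 0.00481), with overlapping ranges.

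In the list of FOXO targets, 3 of 15 tested were lower and 0 higher in sWAT, and 4 were lower and 3 higher of 15 in BAT, 20.0% and 46.7% against 5.31% and 31.9% of all genes. *Klf15* fell from 106 ± 19.4 to 44.5 ± 10.7 CPM in sWAT (-1.26, adjusted p = 0.00786) and from 74.7 ± 15.3 to 20.4 ± 11.3 CPM in BAT (-1.88, adjusted p = 0.00301). *Pck1*, a key enzyme of glyceroneogenesis in fat, fell by 1.37 on the log2 scale in sWAT (adjusted p = 0.0294), and *Pnpla2*, the first lipase of triglyceride breakdown, by 1.28 (adjusted p = 0.0178). *Pck1* and *Pnpla2* were also among the genes called lower in BAT. *Gadd45a* (1.17, adjusted p = 0.00127) and *Bcl2l11* (0.60, adjusted p = 0.00603), known for growth arrest and for cell death, rose in BAT. *Trim63*, a ubiquitin ligase best known from skeletal muscle, was at 0 to 0.032 CPM in Ctrl BAT and at 0.55 to 8.79 CPM in Csn8AKO BAT (adjusted p = 0.000225). It passed the filter on low counts through the Csn8AKO libraries alone, so it could be called only as higher. The part of the muscle markers of replicates 1 and 5 in it was not tested.

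Upstream in BAT, 2 of 3 ligands and receptors tested were higher, 4 of 9 adaptors were higher and 1 lower, 3 of 7 PI3K subunits were higher and 1 lower, and 1 of 12 kinases was lower, where 31.9% of all genes were called in either direction. In sWAT, where 5.31% of all genes were called, 0 of these lists' genes passed, and with lists of 4 to 12 genes at that rate a count of 0 says little of them. *Igf2* (1.18 ± 0.10 to 5.85 ± 4.4 CPM, adjusted p = 0.00457) and *Igf1* (28.9 ± 14.8 to 90.9 ± 46.7 CPM, adjusted p = 0.0317), ligands of the related IGF1 receptor, rose in BAT with overlapping ranges. The adaptors *Shc1* (0.33, adjusted p = 0.00424), *Grb2* (0.32, adjusted p = 0.00475) and *Cbl* (0.37, adjusted p = 0.00525) rose and *Gab1* fell (-0.54, adjusted p = 0.00203). *Cav1*, which encodes the coat protein of caveolae and is named here after its values were seen, was the other adaptor that rose in BAT (0.28, adjusted p = 0.0433). It was at -0.80 in sWAT (adjusted p = 0.105) and alone among the adaptors passed the test of the genotype difference between tissues (1.07, adjusted p = 0.0370). Among 7 PI3K subunits beside *Pik3r1*, *Pik3r5* (3.96 ± 0.44 to 10.8 ± 1.3 CPM, adjusted p = 2.86e-06), *Pik3cg* (1.22, adjusted p = 5.86e-05) and *Pik3cd* (0.75, adjusted p = 0.00311) rose. These 3 are the subunits typical of white blood cells. The macrophage sum of the same libraries was 437 to 644 CPM against 105 to 153 CPM in Ctrl BAT, and its part in their rise was not tested. *Pik3r2* fell by 0.21 (adjusted p = 0.0434). Of 12 kinases, *Mlst8*, a subunit of both mTOR complexes, alone passed in BAT (-0.37, adjusted p = 0.0307).

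Of 16 genes that restrain the pathway, 5 were higher and 3 lower in BAT, where 31.9% of all genes were called, and 1 was lower in sWAT, where 5.31% were. *Ptprf*, a receptor tyrosine phosphatase, rose most in BAT, from 4.24 ± 0.40 to 18.6 ± 2.4 CPM (2.13, adjusted p = 6.70e-08). *Inpp5d*, a lipid phosphatase of blood cells, rose from 11.5 ± 1.4 to 22.5 ± 2.4 CPM (0.97, adjusted p = 1.73e-05), and *Grb10*, an adaptor that binds and inhibits the insulin receptor, rose from 33.5 ± 4.4 to 48.5 ± 4.2 CPM (0.53, adjusted p = 0.000908). *Phlpp2*, a phosphatase that removes a phosphate from AKT, fell in both tissues, by 0.59 in sWAT (adjusted p = 0.0390) and by 0.40 in BAT (adjusted p = 0.00593).

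**Figure D4:**
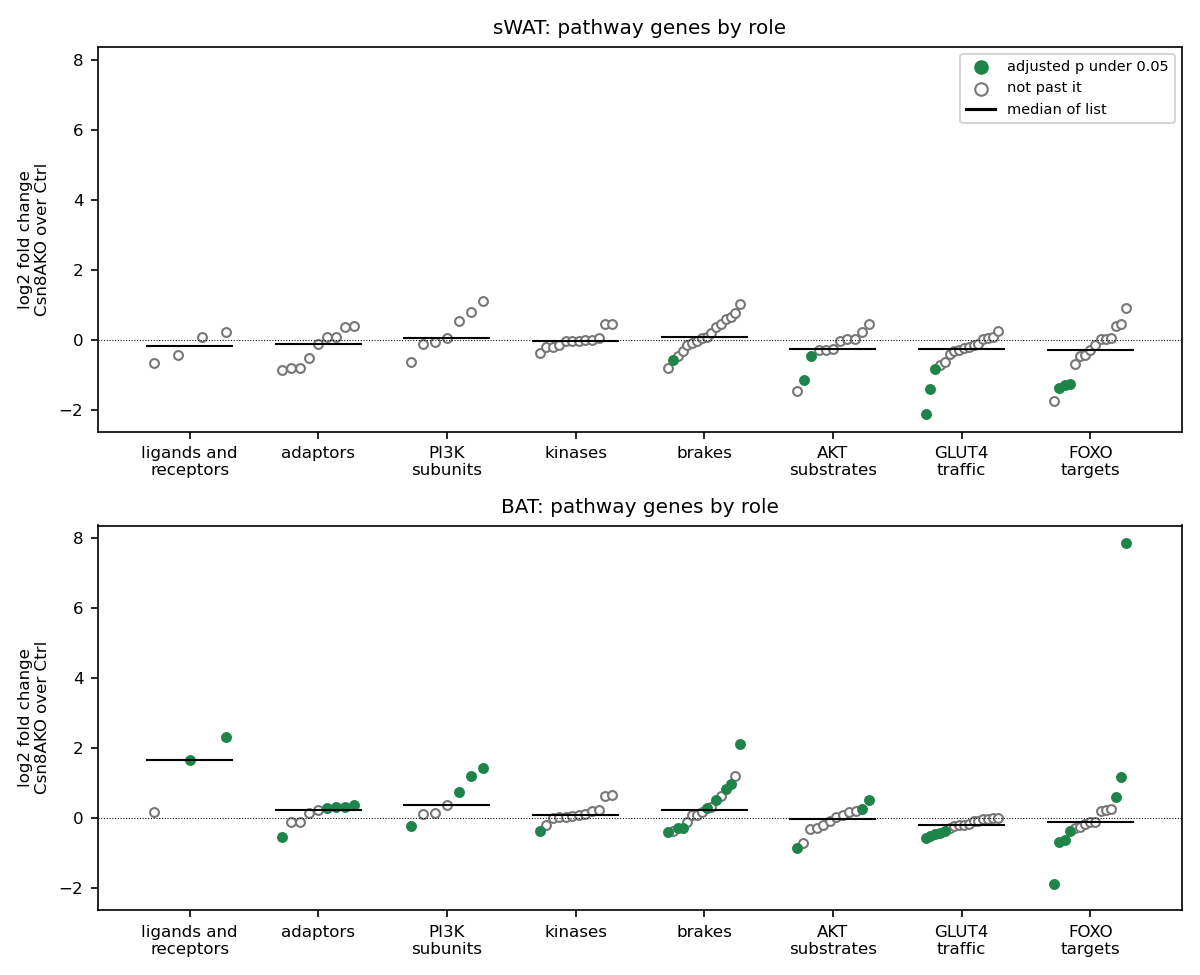
Log2 fold change in Csn8AKO over Ctrl mice (y axis) of the other pathway genes, grouped by role (x axis), in sWAT (upper) and BAT (lower). Each point is a gene, filled at an adjusted p under 0.05, and the line is the median of the list. The filled points of the GLUT4 list lie below 0 in both tissues, the lists for ligands and receptors, adaptors, PI3K subunits and kinases hold filled points in BAT and none in sWAT, where a smaller share of all genes was called, and the highest point is *Trim63* in BAT.

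The genes most like each changed member were found by the Pearson r of log2 CPM, centred within each tissue, over the 18 libraries and 12299 protein-coding genes. Libraries share genotype and depth, so these values describe and do not test. *Akt2* was most like *Trarg1* (r = 0.971), a GLUT4 vesicle protein of fat, *Mfn2* (r = 0.970), a mitochondrial fusion protein, and *Aldh5a1* (r = 0.969). *Irs3* was most like *Arsa* (r = 0.943), a lysosomal sulfatase, *Psmg1* (r = 0.930), a chaperone of proteasome assembly, and *Ptrhd1* (r = 0.918). *Akt1* was most like *P2ry6* (r = 0.947), a nucleotide receptor, *Ptgfrn* (r = 0.942) and *Galnt17* (r = 0.936). Among the 9 genes, the closest pairs were *Pik3r1* and *Tbc1d4* (r = 0.75), *Irs1* and *Irs2* (r = 0.73), *Akt2* and *Foxo1* (r = 0.71) and *Irs3* and *Akt2* (r = 0.69), and the lowest values were those of *Akt1* with *Foxo1* (r = -0.57) and with *Irs3* (r = -0.56).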

How the data were processed

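Total RNA of 18 mice, 1 per library, was depleted of ribosomal RNA and sequenced. The authors aligned the reads with STAR 2.7.9a to GRCm38 (Ensembl release 101). They deposited, for each of 55487 genes, the count of reads that were uniquely aligned and unambiguous, with no normalization. The strand setting was not given in the sources used here. The deposited CPM, FPKM and TPM values were made by the authors from those counts, and were not used in the tests. The separate mice are the replicates, and no pooling is stated.

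Counts were analysed with edgeR 4.0.16 in R 4.3.3 (TMM factors, a filter on low counts by filterByExpr at 10 per library and 15 in total, robust quasi-likelihood tests, Benjamini-Hochberg adjustment over all genes tested, threshold 0.05), within each tissue and, for the interaction and the Ctrl tissues, over the 4 groups. Printed CPM values were scaled by TMM factors within a tissue and RPKM values by those over all 18 libraries. Paralog ratios were given two-sided exact permutation tests with scipy 1.17.1. The fits were tested on simulated data. Alternatives were RLE factors, library size alone, no filter, a filter of over 1 CPM, protein-coding genes only, no ribosomal RNA genes, DESeq2 1.42.0, a joint fit of all 4 groups, limma voom 3.58.1 with quality weights, a replicate block, each library left out in turn and, added after seeing the data, leaving out the 2 lymphocyte-rich sWAT libraries or the 2 BAT libraries with muscle markers. Replicate numbers were not taken as pairs in the main tests, as same-numbered libraries of the genotypes did not deviate together. Whether littermates were matched by number was not given.

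Named were all members, the partners in the ratios, *Cops8*, up to 4 genes of smallest adjusted p in each pathway list and tissue, and the 3 genes most like each called member (protein-coding, mean log2 CPM of at least 1). The members and lists were chosen with earlier results of these data known. Genes and positions follow GENCODE M21, and 55141 IDs had a symbol there. No pair of libraries agreed within sampling noise.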

Additional observations from a re-analysis of the deposited data

Results flagged for a closer look

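In 64 groups of libraries tested for a library far from the others, 2 had one, and chance flags about 1 in 20 groups. *Irs1* in Ctrl BAT replicate 5 was at 237 CPM, far above the other 4 Ctrl mice at 129 to 159 CPM. The log2 ratio of *Irs3* to *Irs1* in Csn8AKO BAT replicate 2 was -3.28, far above the other 4 Csn8AKO mice, which ran from -4.86 to -4.61. That mouse had the lowest *Irs1* of the BAT libraries, 111 CPM, and an *Irs3* of 11.4 CPM, within the range of its group.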

How the results depend on the processing

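The number of genes called in sWAT, 1000, was 434 with library size alone, 1946 with DESeq2, 2155 with limma voom, 2463 with all 4 groups in one fit, 1820 without the lymphocyte-rich libraries, and 326 to 1477 with 1 library left out. Members called in sWAT, 0, were 1 with no filter, 2 with DESeq2, 2 with limma voom, 1 with all 4 groups, 2 without the lymphocyte-rich libraries and 0 to 2 with 1 library left out. Members called in BAT, 3, were 4 with library size alone, 4 with DESeq2, 5 with limma voom and 3 to 5 with 1 library left out. For the interaction, 532 genes became 1092 with DESeq2, 903 with limma voom and 355 to 720 with 1 library left out, and 0 members became 1 with limma voom and 0 to 1 with 1 library left out. Between the Ctrl tissues, 4 members became 2 with library size alone and 2 to 6 with 1 library left out. Library size alone turned *Pik3r1* in BAT to 0.11 and *Tbc1d4* between the Ctrl tissues to -0.0817 on the log2 scale, and without the muscle-marker libraries *Irs2* in BAT was -0.28 and *Tbc1d4* -0.00195. With medians the *Irs3* to *Irs1* ratio in sWAT was 0.23. The cause of these shifts was not tested. Leaving out 1 library turned the sign for *Irs2* in sWAT (-0.42 to 0.12), in BAT (-0.0938 to 0.56) and in the interaction (-0.0179 to 0.64), for *Pik3r1* in BAT (-0.33 to 0.11), and for the ratios of *Irs3* to *Irs1* in sWAT (-0.22 to 0.28), *Insr* to *Igf1r* in BAT (-0.0453 to 0.12) and *Pik3r1* to *Pik3r2* in BAT (-0.10 to 0.30), none of them called. Library size alone moved the BAT calls from 3585 higher and 3536 lower to 4183 and 2087, the sWAT calls from 434 and 566 to 106 and 328, and the median of all genes in BAT from 0.01 to 0.14. In each of these settings 0 of the ratios passed the threshold. With 1 sWAT library left out, the smallest p that the exact permutation test can reach is 0.0571. No sWAT ratio could pass in those fits, so they decide nothing for sWAT. With all libraries, or with 1 BAT library left out, a ratio could pass only where several others also had a small p. The counts of 0 therefore say little of any single ratio in either tissue.

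With the replicate block, 299 genes were called in sWAT, 6776 in BAT and 297 for the interaction, and 0, 3 and 0 members. The correlation of same-numbered libraries ran from -0.42 to 0.24 in sWAT and from -0.13 to 0.14 in BAT, which cannot show whether the mice were matched by litter.

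With 4 mice per group, the sWAT intervals of *Irs1*, *Irs2*, *Irs3*, *Pik3r1* and *Akt2* each span more than 1 on the log2 scale. Counts of a gene sum its isoforms, and the RNA counts hold no measure of protein or phosphorylation.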
